A study of Saccharomyces cerevisiae with 2 samples.

Results

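Some capped and polyadenylated RNA molecules of budding yeast began past the stop codon of a gene, on the strand of that gene, and held no known coding sequence. These molecules were followed here in Saccharomyces cerevisiae cells that lack SET2. A molecule was taken when it overlapped no open reading frame (ORF) of the R64 annotation on either strand and no annotated RNA gene on its own strand, when its start lay from 1 to 300 nt past the stop codon of an ORF on the same strand, and when its end lay over 500 nt from the next start codon on that strand. A distinct pair of start and end positions is called an isoform, and the deposited count of an isoform is called its number of molecules. Of 510263 isoforms and 6074514 molecules, 1856 isoforms with 6262 molecules met the rule, 0.103% of all molecules. They had 1475 distinct start sites and 1153 distinct end sites, and they lay past the stop codons of 442 ORFs, called host ORFs below. The rule used the positions of starts and ends against the annotation. The counts, the sequence at the starts, the ends of other molecules and the level of the host genes were not part of it.

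The study holds 1 group of 2 biological replicate cultures. The cells are of the laboratory strain BY4741 with SET2 deleted by a kanMX4 marker (delta set2::kanMX4), and were grown in YPAD, a rich medium, with 1% glucose to mid-log phase at an OD of 1. Both replicates are in 1 pooled count column, so no spread between replicates can be given, no test over samples was possible, and no wild type was analysed here. RNA came from whole cultures, so fewer cells with a transcript and fewer copies per cell cannot be told apart. No molecule overlapped the SET2 ORF on either strand (0 molecules, which allows a share of up to 4.94e-05% of all molecules). All intervals are 95% Wilson intervals, which cover counting error only.

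A yeast messenger RNA ends with a 3′ untranslated region (3′ UTR), which runs from the stop codon to the poly(A) site where the RNA is cut and polyadenylated. RNA polymerase II starts yeast transcripts mostly at a pyrimidine followed by a purine, the purine being the first base of the RNA, and this pair of bases is called the initiator pair here. Set2 methylates lysine 36 of histone H3 behind elongating RNA polymerase II, a mark that is known to hold back transcription from inside genes. Transcript isoform sequencing (TIF-Seq) reads the cap end and the poly(A) end of each RNA molecule as a pair, so a start past a stop codon can be tied to its own end.

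The most used start site of each of 18 named hosts is shown, because the bases at the start differ between sites whose molecules ended at an end of the gene and sites whose molecules did not. The hosts are those of the 12 most used sites (1 site a host), of the most distinct start sites (which adds RPL8A and MRH1), of the most members per whole-ORF molecule (which adds THI22, RSP5 and YME1), and GPM1, the host of the highest gene level. Each run has 15 bases before the start and 15 bases from the start on, read 5′ to 3′ on the strand of the RNA in RefSeq's R64 genome. The capitals are the last base before the start and the first base of the molecule. From the first 11 sites no molecule ended where a molecule over the whole host ORF ended. PDR12, MAL32, PIG1 and MPT5 had no such whole-ORF molecule. DBP2, EXO5, THI22 and GPM1 had no whole-ORF end at least 93 nt, the length of the shortest member, downstream of any member start. The ends of KAR4, 179 to 201 nt past the stop codon, lay nearer than that to its start shown, at 115 nt. Sharing an end was thus possible only at the sites of RSP5 and YME1, of which RSP5 holds the initiator pair.
KAR4 (chrIII:29036-29065, plus strand): aaaaccaaattgcgCAaggattgattcagt
DBP2 (chrXIV:416561-416590, plus strand): gattttcaaaaaaaCAgtagacttacaaag
PDR12 (chrXVI:445582-445611, minus strand): atcccactcgtgagTAatggcttaaaggca
MAL32 (chrII:807364-807393, plus strand): agggagaagaaaccTGtgctggtattaatg
PIG1 (chrXII:688990-689019, minus strand): attaataaaatagtTAatcatattcttttg
MPT5 (chrVII:170711-170740, plus strand): ccggaaaaaaatggTAaagcaaactattgc
EXO5 (chrII:567469-567498, plus strand): agtatgaagtagtgTAggtattgtaacatt
RSP5 (chrV:412732-412761, plus strand): ttgttaattttatcTGagttgctcatgaaa
THI22 (chrXVI:780426-780455, plus strand): ttggaaatataaatTAtgttcatttcattt
GPM1 (chrXI:163355-163384, minus strand): gaatgagtggtaatTAatggtgacatgaca
YME1 (chrXVI:612857-612886, plus strand): tacatcttctcctgGTcagcttgaaacttc
Of these 11 sites, that of YME1, with 5 molecules, lacks the initiator pair and the others hold it. From the next 5 sites, every molecule ended at a position that whole-ORF molecules of the host also used.
PMP2 (chrV:122635-122664, minus strand): attaattaatttttCCtgtgtgtgtgctat
RPS11B (chrII:333820-333849, plus strand): aaattaacaagatgATataataataagtgg
PUB1 (chrXIV:604464-604493, plus strand): gcctataaacttacTCtatttttttagttt
RPL8A (chrVIII:35032-35061, minus strand): tgcatgccttagtaGTtttggattacctaa
MRH1 (chrIV:509188-509217, plus strand): cctataaatggataAAactgtctttattga
None of these 5 holds the pair. The sites of GUT2 and YNL190W, where 135 of 165 and 16 of 26 molecules used an end of the host, have it.
GUT2 (chrIX:51728-51757, minus strand): tcgatcatgatagtTAagggtgacaaagat
YNL190W (chrXIV:283103-283132, plus strand): taaattctttttatTAtactatttcgacta
These are single sites, and over all start sites the pair was neither always present in the first kind nor always absent in the second.

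Members were rare and spread thinly over the genome. An ORF was said to have room when an isoform of 40 nt, the shortest of the table, could have met the rule past its stop codon, which held for 3878 of 6002 ORFs. Of these, 442 hosted a member, which is 11.4% (10.4% to 12.4%). A host had a median of 4 member molecules, 101 hosts had 1, 122 had at least 10 and 8 had at least 100. The 10 hosts with the most members held 38.6% of all member molecules, and KAR4 alone held 11.7%. Isoforms counted 1 time made up 43.6% of member isoforms, against 35.2% of all isoforms of the table. Most molecules that began in the window were set aside by the rule: 513832 molecules started from 1 to 300 nt past a stop codon, and 503417 of these overlapped an ORF. A further 597 molecules overlapped an RNA gene, and 3556 ended within 500 nt of the next start codon. At the edges of the rule, 163 molecules started 291 to 300 nt past the stop codon and 93 started 301 to 310 nt past it. At the other edge, 54 molecules ended within 50 nt of the 500-nt limit on the side that met the rule, and 89 ended within 50 nt of it on the side that did not.

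Member molecules were short. Their median length was 324 nt, with 5th and 95th percentiles of 189 and 667 nt, and the range ran from 93 to 1366 nt. They started a median of 111 nt past the stop codon and ended a median of 467 nt past it. KAR4 moved these medians, and without it the length was 311 nt and the start lay 98 nt past the stop codon. In the genome span of a member isoform, the longest frame from an ATG to a stop codon had a median of 28 codons. In 17.5% of the isoforms it had 50 codons or more. The longest, of 98 codons, lay past FLO1, the gene of a cell-surface flocculin, which had 3 member molecules.

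Starts became rarer towards the stop codon and were at a low level past it. Isoforms of the same 3878 ORFs that began inside the ORF and ended past its stop codon under the same conditions were counted for comparison. In the bin from 299 to 275 nt before the last base of the stop codon, 176 molecules started per 1000 positions, and in the last 25 nt of the ORF 17.98 did. Past the stop codon, there were 13.5 per 1000 open positions in the first 25 nt and from 4.997 to 11.4 in the other 25-nt bins. The high value of 11.4, from 101 to 125 nt, rested on KAR4 and was 4.73 without it. The sequence at the starts went the other way. Before the stop codon, the initiator pair stood at 23.8% to 28.8% of the start sites of a bin. Past it, the share was 30.8% in the first 25 nt and 66.7% from 276 to 300 nt.

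**Figure D1:**
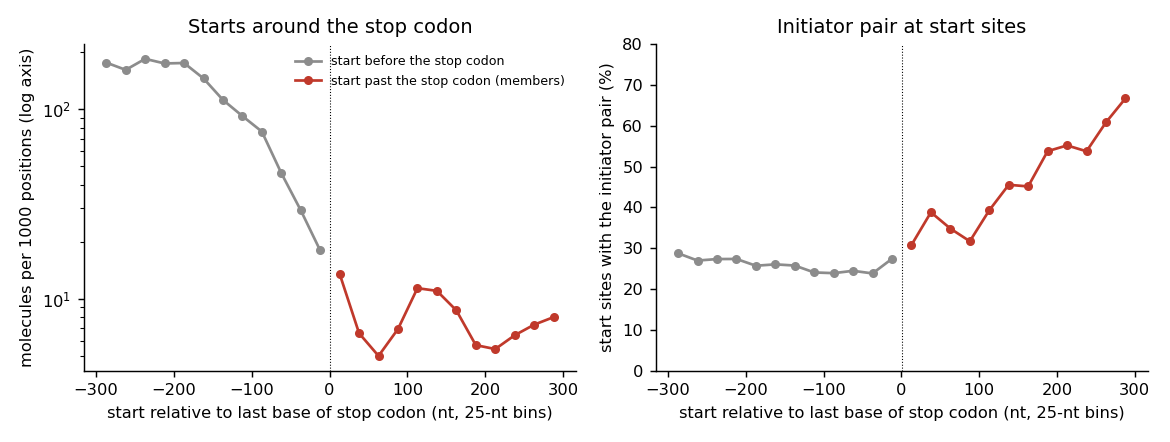
Molecules starting per 1000 positions (left, log axis) and percentage of distinct start sites with the initiator pair (right) in 25-nt bins around the last base of the stop codon, for starts inside the ORF that end past it (grey) and for members (red). The start density is 176 per 1000 positions in the first grey bin and 13.5 in the first red bin, while the initiator share reaches 66.7% in the last red bin.

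Over all 1475 member start sites, 41.2% (38.7% to 43.8%) held the initiator pair. Of all 126675 positions open to members past the host ORFs, 23.6% did. Start sites of molecules that cover the whole host ORF, called full-ORF molecules, held it in 53.3% of 6776 sites (52.1% to 54.5%). Starts in the last 300 nt of the same ORFs held it in 24.1% of 7127 sites (23.2% to 25.2%). The member share thus lay above the open positions and the starts inside the ORFs, and below the full-ORF starts. The counting intervals did not overlap, but they treat sites as independent, which sites of the same host are not. No test was made of these differences. The member share was higher at well used sites. At the 116 member sites with at least 10 molecules it was 56.9% (47.8% to 65.5%), and weighted by molecules it was 54.0%. The pair CA made up 12.7% of member sites against 5.49% of the open positions of hosts and 18.4% of full-ORF sites of hosts. An A at 8 nt before the start, a base that is often found at yeast start sites, stood at 42.8% of member sites, 33.6% of open positions and 44.5% of full-ORF sites of hosts.

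The TATA element, the site of the TATA-binding protein, was searched on the strand of the RNA from 120 to 40 nt before the start, as TATAAAA or TATAAAT or TATATAA or TATATAT, which can overlap each other; the opposite strand was not searched. It was found before 10.8% (9.36% to 12.5%) of member start sites. Of windows of the same length before every open position past the hosts, 11.8% held it, and 19.97% of those before full-ORF starts of the hosts did. For starts near the stop codon this window lies inside the coding sequence. A start on the opposite strand lay within 200 nt upstream of 25.1% of member start sites, of 34.6% of full-ORF start sites of hosts and of 12.6% of starts in the last 300 nt of the ORFs.

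Ends were then set against those of the host gene. The 352 hosts with a full-ORF molecule had 5304 member molecules. Of these, 86.0% (85.1% to 86.9%) started upstream of the most used full-ORF end of the host, that is inside the 3′ UTR of its main isoform. The others started past it, so for them the name 3′ UTR does not hold by this measure. Hosts with 1 to 9 full-ORF molecules had 1452 of the 5304, and there the most used end rests on few molecules. In KAR4 and in GUT2 it rests on 2, which the interval does not cover. An end at the very base where a full-ORF molecule of the host ended was found for 56.7% (55.4% to 58.0%) of member molecules, and 23.4% ended at the most used full-ORF end. Full-ORF end sites took up 7.08% of all positions from 100 to 400 nt after the member starts. Molecules that started in the last 300 nt of the same ORFs shared a full-ORF end in 86.7% (86.3% to 87.0%). Member ends were either at or close to a host end or far from it. Another 6.41% of member molecules ended 1 to 5 nt from the nearest full-ORF end, and 28.3% ended more than 100 nt from it. A start could share an end only where the host had one far enough downstream. For 75.9% of the 5304 molecules, a full-ORF end lay at least 93 nt downstream of the start, the length of the shortest member, and is called within reach. Of these 4026 molecules 74.7% (73.3% to 76.0%) shared an end. Of the 2297 molecules at other ends, 1278 (55.6%) had no full-ORF end within reach, and without KAR4 633 of 1567 (40.4%) had none. By host, all member molecules shared an end in 129 of the 352 hosts and none did in 147. At least 6 A in the 10 bases after the end, a sequence on which oligo(dT) can prime inside an RNA, followed 21.7% of member molecules and 23.5% of the full-ORF molecules of hosts. This order turned with the hosts used: without KAR4 the members had 23.99% against 23.5%, and without the 10 hosts with the most members 28.9% against 23.9%.

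Start sequence differed between sites sorted by end use. At 771 start sites from which every molecule ended at a full-ORF end, the initiator pair stood at 25.7% (22.7% to 28.9%), close to the 23.6% of all open positions. At 453 start sites from which no molecule ended at a full-ORF end, it stood at 58.5% (53.9% to 62.9%), and at 215 start sites past hosts with no full-ORF molecule it stood at 58.6% (51.9% to 65.0%). The sites with no end shared were not of 1 kind. At 187 of them no full-ORF end was within reach, and 78.6% (72.2% to 83.9%) of these held the pair. At the other 266 an end was within reach and not used, and 44.4% (38.5% to 50.4%) held it. With an end within reach, the share in hosts with at least 100 full-ORF molecules was 45.8% (35.5% to 56.5%) of 83 sites with no end shared and 23.7% (20.5% to 27.2%) of 617 sites with every end shared. In hosts with 1 to 99 it was 43.7% (36.7% to 51.0%) of 183 sites and 33.8% (26.8% to 41.5%) of 154, with overlapping intervals. The A at 8 nt before the start stood at 37.2% of all sites with every end shared and 49.9% of those with none. The TATA element stood before 6.36% and 15.9%, beside 11.8% of open positions of hosts. Of sites with every end shared, 489 of 771 lay 1 to 100 nt past the stop codon, where the window searched reaches into coding sequence. Of sites with none, 208 of 453 did, and the part of this distance in the TATA shares was not tested. Without regard to reach, sites with every end shared and sites with none were found at each gene level. In hosts with 100 to 999 full-ORF molecules, the initiator pair stood at 26.9% (21.9% to 32.5%) of 268 sites with every end shared and at 55.8% (45.3% to 65.8%) of 86 sites with none. In hosts with 1000 to 9999 full-ORF molecules, it was 22.7% of 309 sites against 62.5% of 32. Without the 10 hosts with the most members, it was 27.8% of 492 sites against 57.2% of 395. By distance from the stop codon, sites with no end shared had the pair at 48.1% from 1 to 100 nt and at 78.2% from 201 to 300 nt, and sites with every end shared at 23.5% and 32.1%. Sites were sorted by their measured ends, sites of 1 host are not independent, and no test was made of the difference.

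**Figure D2:**
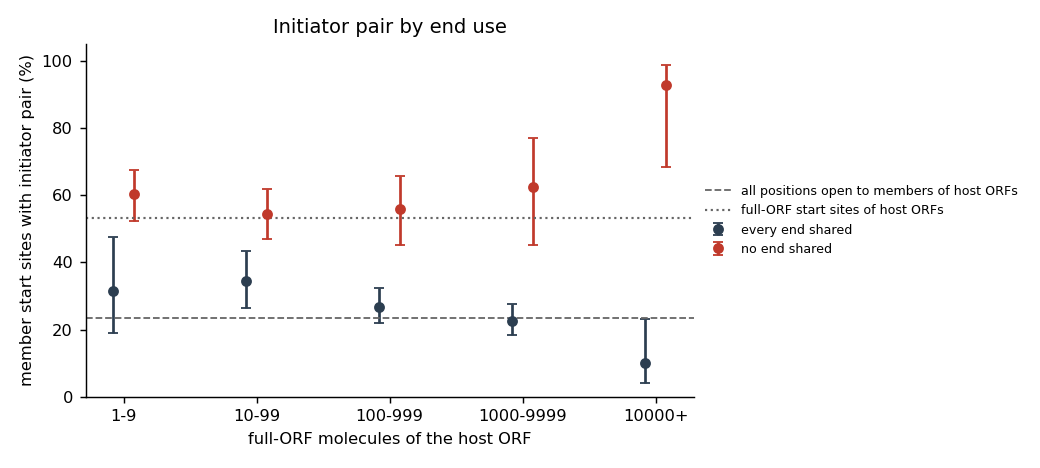
Percentage of member start sites with the initiator pair, by the number of full-ORF molecules of the host ORF, for sites from which every molecule (dark) or no molecule (red) ended at a full-ORF end site of the host; bars are 95% Wilson intervals. Sites with every end shared lie at 34.5% or below at each level and sites with no end shared at 54.5% or above, beside 23.6% for all open positions and 53.3% for full-ORF start sites of hosts. Sites with some ends shared are not shown.

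Sites with every end shared and sites with none also differed in place and size. Molecules from sites with every end shared started a median of 86 nt and ended a median of 391 nt past the stop codon, with a median length of 286 nt, and 94.9% of them started upstream of the host's most used end. Those from sites with no end shared started at 115 nt, were 407 nt long, and began upstream of the most used end in 72.5% of molecules. Without KAR4 these values were 126 nt, 320 nt and 60.1%. Molecules from sites with some ends shared started at 17 nt, were 325 nt long, and began upstream of the most used end in 96.6%. A single site carried up to 42 molecules with every end shared, and up to 239 with none, or 65 without KAR4.

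ORFs of every level hosted members, more often those with at least 1000 full-ORF molecules. A full-ORF molecule has to span the whole ORF, so this level can depend on ORF length as well as on activity. Length was not held equal across the classes. Spearman's rho between full-ORF molecules and member molecules was 0.0763 across the 3878 ORFs with room, given as a description since both counts come from 1 table and ORFs are not independent replicates. Within the 442 hosts it was -0.0138. Hosts had a median of 41.5 full-ORF molecules, and ORFs with room and no member had 20. In sense molecules, which need not span the ORF, the medians were 178 and 117. Taking isoforms of at least 2 molecules, the host median was 27 (17 to 58), an interval that includes 20. Of ORFs with no full-ORF molecule 8.80% (7.21% to 10.7%) hosted a member, of those with 100 to 999 11.9% (9.94% to 14.3%), of those with 1000 to 9999 18.4% (14.5% to 23.1%), and of those with at least 10000 20.5% (13.0% to 30.8%). Beside the full-ORF molecules of genes that had many of them, members were few. There were 247 member molecules per 10000 full-ORF molecules in ORFs with 10 to 99 of the latter, 45.3 in ORFs with 100 to 999, 13.8 in ORFs with 1000 to 9999 and 0.789 in ORFs with at least 10000. ORFs with 1 to 9 full-ORF molecules had 6088 per 10000, which was 3032 without KAR4. The classes are set by the divisor of this ratio, so a fall across them is in part built in. Member molecules numbered 1452 past 581 ORFs with room in the class of 1 to 9 and 980 past 1032 in that of 10 to 99. In the next 3 classes they numbered 1315 past 854, 1356 past 310 and 201 past 78. A low full-ORF count does not show a silent gene: GUT2 had 3 full-ORF molecules among 335 sense molecules that overlap its ORF, and PIG1 had 0 among 85.

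Up to 9999 full-ORF molecules, hosts of higher level had a larger share of members at shared ends and a smaller share of starts at the initiator pair, and the highest class went the other way. The share of member molecules at a full-ORF end was 20.4% in hosts with 1 to 9 full-ORF molecules (41.0% without KAR4), 40.9% with 10 to 99, 71.5% with 100 to 999, 90.0% with 1000 to 9999 (86.3% without PMP2) and 74.6% with at least 10000 (66.0% without RPL38). The share of all positions 100 to 400 nt after the starts that were full-ORF end sites was higher as well, 0.358% in the lowest of these classes and 26.8% in the highest, and its part in the shared ends was not tested. The initiator pair stood at 54.8% of start sites in hosts with 1 to 9 full-ORF molecules (50.3% without KAR4), 46.2% with 10 to 99, 35.1% with 100 to 999, 26.6% with 1000 to 9999 (28.4% without PMP2) and 31.5% of 54 sites with at least 10000 (37.5% without RPL38).

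Hosting varied more with the place of the gene's own end than with its level. Among 2855 ORFs with room and a full-ORF molecule, 6.16% (4.84% to 7.82%) hosted a member when the most used full-ORF end lay within 99 nt of the stop codon. The share was 8.20% (6.85% to 9.79%) at 100 to 199 nt, 30.4% (25.7% to 35.6%) at 200 to 299 nt and 44.7% (37.6% to 52.0%) at 300 nt or more. The open positions and the gap past the stop codon were not held equal across these windows, and their part was not tested. Restricted to ORFs with at least 10 full-ORF molecules, a limit chosen after the values were seen, the 4 shares were 6.16%, 8.35%, 33.9% and 51.2%. Hosts with a member at a shared end went from 1.49% to 35.8% of the ORFs across these windows, and hosts with a member at another end went from 5.07% to 28.5%. The first of these rises was in part fixed in advance, since a member of at least 93 nt can share only an end far enough out. The next ORF downstream made a smaller difference: 12.1% of ORFs followed by an ORF on the same strand and 11.3% of those followed by one on the opposite strand hosted a member, with overlapping intervals (10.1% to 14.4% and 10.2% to 12.5%).

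**Figure D3:**
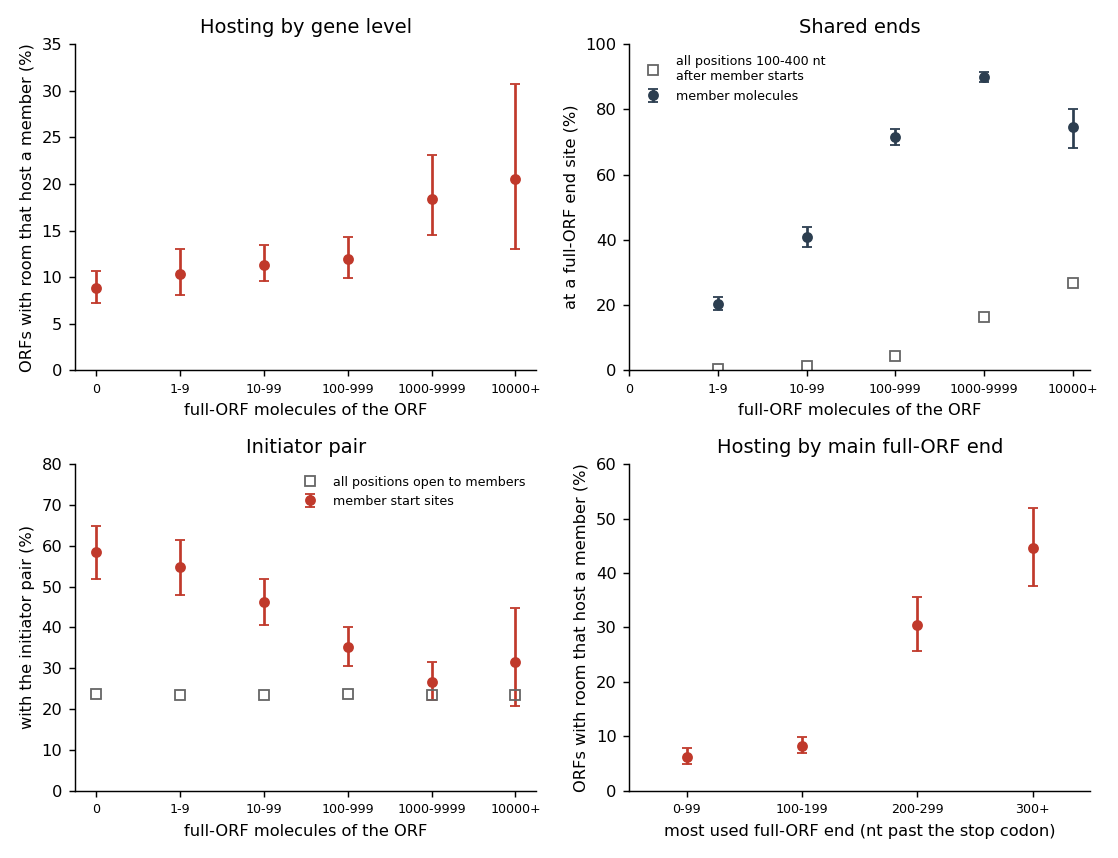
Share of ORFs with room that host a member by full-ORF molecules of the ORF (top left) and by the position of its most used full-ORF end (bottom right), share of member molecules at a full-ORF end site (top right) and share of member start sites with the initiator pair (bottom left); bars are 95% Wilson intervals and open squares give the share over all positions. Hosting ranges from 8.80% to 20.5% by gene level and from 6.16% to 44.7% by the position of the end, and the initiator share falls from 58.6% to 26.6% before the last window.

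Among genes whose members ended away from the full-ORF ends, KAR4 had the most. KAR4 (YCL055W, chromosome III, 27929 to 28936, plus strand) encodes a transcription factor of mating and meiosis. It had 4 full-ORF molecules and 730 member molecules from 36 start sites. Of the members, 94.9% began at the initiator pair, 239 of them at position 29051, 115 nt past the stop codon, and 156 at position 29047. The TATA element lay in the window before position 29051. The ends of its 4 full-ORF molecules lay 179 to 201 nt past the stop codon, within reach of 85 of the 730 members, so that 0 shared ends was close to fixed for this gene. Of the members, 523 ended at position 29546, 610 nt past it. RDT1, the next ORF, starts on the same strand after a gap of 1973 nt.

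DBP2 (YNL112W, chromosome XIV, 413639 to 416281, plus strand), the gene of a DEAD-box RNA helicase, had 373 full-ORF molecules and 119 members, of which 0 shared a full-ORF end and 94.1% began at the initiator pair. Its most used start, with 65 molecules, lay 295 nt past the stop codon, beyond the most used full-ORF end at 133 nt, and no full-ORF end was within reach of any of its members. PDR12 (YPL058C, chromosome XVI, 445842 to 450377, minus strand), a plasma membrane pump for weak organic acids, had 0 full-ORF molecules, 4 sense molecules and 76 members, 53 of them from 1 site 246 nt past the stop codon. MAL32 (YBR299W, chromosome II, 805351 to 807105, plus strand), a maltase gene, had 0 sense molecules and 71 members, all of which began 258 to 274 nt past the stop codon. MAL12, its near-identical copy on chromosome VII, had 0 sense molecules and 26 members over the same distances, and 294 of the 300 bases past the stop codons are the same in both. The first 30 bases of 35 MAL32 and 6 MAL12 members stand elsewhere in the genome too, so the split of molecules between the copies is uncertain. Over all hosts, 57 member molecules (0.910%) began with 30 bases that have another exact copy. Past PDR12 and MAL32 the members thus outnumbered the sense molecules of the gene, and past DBP2 they did not.

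PIG1 (YLR273C, chromosome XII, 689083 to 691029, minus strand), which encodes a putative targeting subunit of the Glc7 phosphatase, had 69 members with a median length of 849 nt and 85 sense molecules, of which 0 covered the ORF. MPT5 (YGL178W, chromosome VII, 167352 to 170571, plus strand), the gene of an RNA-binding protein of the PUF family, had 30 members, all at the initiator pair, 25 of them from position 170726. EXO5 (YBR163W, chromosome II, 565723 to 567480, plus strand), a mitochondrial exonuclease gene, had 45 members, all at the initiator pair, and its most used start, with 23 molecules, lay 4 nt past the stop codon. Its full-ORF molecules numbered 36, and 0 members shared their ends, none of which was within reach. The pair stood at the start of 88.4% of PIG1 members, so in all 3 genes most starts had it.

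The genes with the most members per full-ORF molecule, among the 42 with at least 20 members and a full-ORF molecule, were KAR4, GUT2, THI22, RSP5 and YME1. GUT2 (YIL155C, chromosome IX, 51759 to 53708, minus strand) encodes the mitochondrial glycerol-3-phosphate dehydrogenase. It had 3 full-ORF molecules and 291 members, all of which began 4 to 41 nt past the stop codon, 165 of them at 17 nt and 62 at 8 nt. A further 293 molecules began in the last 300 nt of the ORF. In contrast to KAR4, 81.4% of GUT2 members shared a full-ORF end, although 94.2% began at the initiator pair. THI22 (YPR121W), a relative of a thiamine synthesis kinase, had 4 full-ORF molecules and 40 members, of which 0 shared an end and 0 had one within reach. RSP5 (YER125W), a ubiquitin ligase, had 4 and 28, with 10.7% at a shared end. YME1 (YPR024W), a protease of the mitochondrial inner membrane, had 5 and 31, with 35.5% at a shared end, and 0 of its members began at the initiator pair. Each of these ratios rests on at most 5 full-ORF molecules.

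In another set of hosts, all of them with at least 410 full-ORF molecules, every member had a full-ORF end within reach and most members used one. PMP2 (YEL017C-A, chromosome V, 122798 to 122929, minus strand), a small proteolipid that associates with the plasma membrane proton pump, had 7388 full-ORF molecules and 364 members, from 82 start sites spread over 5 to 297 nt past the stop codon. All 364 ended at full-ORF ends, 306 of them at position 122331, where 6337 full-ORF molecules ended. The initiator pair was at the start of 35.4% of its members. RPL8A (YHL033C, chromosome VIII, 35255 to 36025, minus strand), a protein of the large ribosomal subunit, had 5818 full-ORF molecules and 304 members from 61 start sites. Of these members, 99.7% shared an end and 76 of the 304 began at the initiator pair. Its most used end, 491 nt past the stop codon, was the same for full-ORF molecules (1308) and for members (75).

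MRH1 (YDR033W, chromosome IV, 508147 to 509109, plus strand), which encodes a membrane protein related to Hsp30, had 655 full-ORF molecules and 110 members from 42 start sites, with 98.2% at a shared end and 22.7% at the initiator pair. YNL190W (chromosome XIV, 282395 to 283009, plus strand), the gene of a hydrophilin of the cell wall, had 410 full-ORF molecules and 225 members from 39 sites, with 88.0% at a shared end. PUB1 (YNL016W, chromosome XIV, 602907 to 604268, plus strand), which encodes a poly(A)- and poly(U)-binding protein, had 2586 full-ORF molecules, of which 2191 ended 27 nt past the stop codon, too near for a member, and 96 ended 494 nt past it. Of its 94 members, 92 shared an end, 57 of them the one at 494 nt. RPS11B (YBR048W, chromosome II, 332831 to 333812, plus strand), a protein of the small ribosomal subunit, had 50686 full-ORF molecules and 49 members, all at shared ends and none at the initiator pair.

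The ends are shown for 4 of these genes, with 20 bases up to and including the last base of the molecule, in capitals, and 10 bases after it. For PMP2, RPL8A and GUT2 the position was also an end of full-ORF molecules, 6337, 1308 and 2 of them, and for KAR4 it was not.
PMP2 (chrV:122321-122350, minus strand): tacaagactttagattttcGaagtgtcgcc
RPL8A (chrVIII:34754-34783, minus strand): ttaacgatgtttgaaactcCacgatcattg
GUT2 (chrIX:51409-51438, minus strand): taatatcgttttaattatcCcctttatctc
KAR4 (chrIII:29527-29556, plus strand): ataaacaaaacaatatttgCaagccattga

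**Figure D4:**
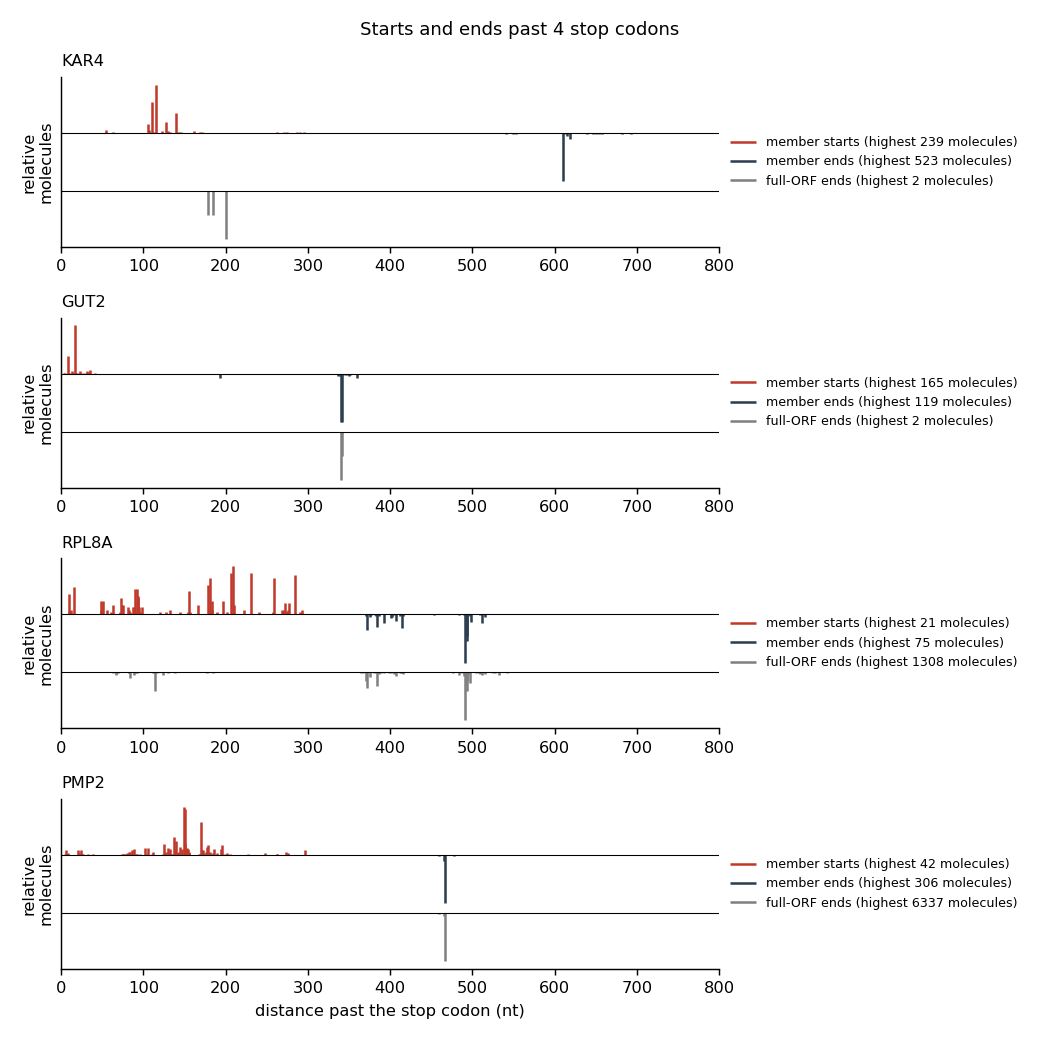
Member start sites (red, upwards), member ends (dark, downwards) and full-ORF ends (grey, downwards) by distance past the stop codon in nt, each scaled to its own highest site, whose molecules are given beside it. In KAR4 the starts lie from 47 to 295 nt, with the highest at 115 nt. Its ends lie from 514 to 700 nt, with the highest at 610 nt, away from the full-ORF ends. In GUT2 the starts lie next to the stop codon. In RPL8A and PMP2 the starts are spread, and nearly all ends coincide with full-ORF ends, with the highest at 491 and 467 nt.

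Members were not found past every ORF of high level. Of the 5 ORFs with room that had the most full-ORF molecules, TDH3 (glyceraldehyde-3-phosphate dehydrogenase, 195754 full-ORF molecules), RPS2 (153893), RPL23B (120356) and RPS3 (104403) had 0 members each, and a count of 0 allows up to 3 molecules. In the last 300 nt of the TDH3 ORF, 1210 molecules that ended past the stop codon began. GPM1 (phosphoglycerate mutase), with 108978 full-ORF molecules, had 23 members. All 23 began at the initiator pair, 208 to 273 nt past the stop codon, beyond the most used full-ORF end at 134 nt, and no full-ORF end was within reach. RPL33A, singled out after its values were seen, was a like case: with 8612 full-ORF molecules it had 49 members, of which 98.0% began at the initiator pair, and 0 had a full-ORF end within reach.

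**Figure D5:**
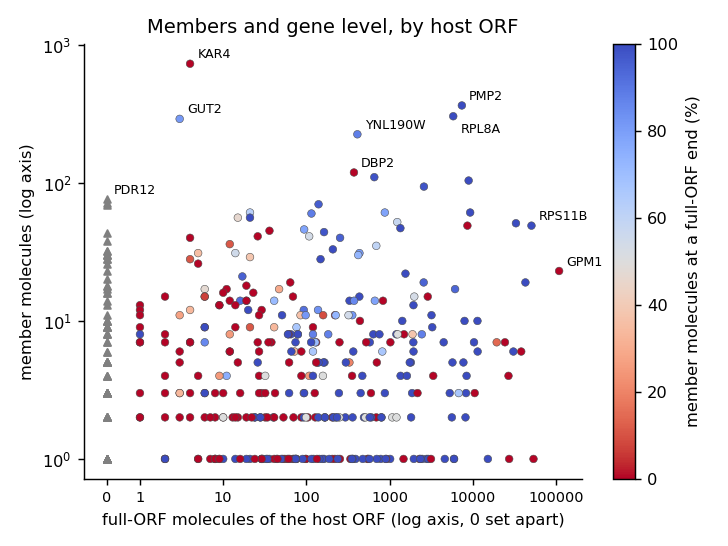
Member molecules against full-ORF molecules for each host ORF (log axes, hosts with no full-ORF molecule as grey triangles at the left), coloured by the percentage of member molecules at a full-ORF end of the host. Hosts with many members are found at low and at high gene level, with red points (no shared end, such as KAR4 and DBP2) more on the left and blue points (all ends shared, such as PMP2 and RPL8A) more on the right.

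Groups of genes were described by how many of their ORFs with room hosted a member, beside 11.4% over all ORFs. Genes of cytosolic ribosomal proteins hosted members in 18 of 95 (18.9%, 12.3% to 28.0%), with 539 member molecules, most of them past RPL8A. Over all of these members, 87.0% shared an end and 30.3% of start sites held the initiator pair. Genes of the core histones, listed together with HTZ1 and HHO1, hosted members in 4 of 10, among them HTB2 (histone H2B) with 10 molecules, of which 0 began at the pair. Cell wall mannoprotein genes hosted members in 5 of 14, with 104 of their 124 molecules past SED1, a structural protein of the wall, all of which shared an end. Genes of glycolysis and fermentation hosted members in 3 of 15, GPM1 with 23 of the 25 molecules, TPI1 and PFK1 with 1 each. Of heat shock protein genes 0 of 9 and of translation factor genes 0 of 5 hosted a member. The intervals of the ribosomal protein, histone (16.8% to 68.7%) and cell wall (16.3% to 61.2%) genes lay above 11.4%, and those of the other lists included it. These lists are short and hold many genes of high level, and ORFs with at least 10000 full-ORF molecules as a whole hosted members in 20.5%. They were not tested.

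Members that overlapped other annotated features were counted. Long terminal repeats of retrotransposons were overlapped by 222 member molecules (3.55%), origins of replication by 140 (2.24%), pseudogenes by 17, RNA genes on the opposite strand by 16 and mobile elements by 3, and centromeres and telomeres by 0. The share of open positions over these features was not computed, so these counts do not show whether members overlap them more or less than other positions.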

How the data were processed

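RNA of 2 biological replicate cultures of 1 group was measured by TIF-Seq. The deposited table, with the authors' counts pooled over both replicates, gives whole-number, unnormalized counts of molecules per chromosome, strand, start and end. CASAVA, Novoalign 2.07.10 and the build R64 are named in the submitters' processing notes, with no role. Filters and removal of PCR duplicates before deposit are not given in the sources used here. The table held 6074514 molecules and had 0 sample columns that were not used.

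Positions were set against RefSeq's R64 genome and annotation (6002 nuclear ORFs, 411 RNA genes) with Python 3.11.15, numpy 2.4.6, pandas 2.3.3, scipy 1.17.1 and matplotlib 3.10.9, and the scripts were tested on simulated data. As a check of the build, 75.5% of 11466 full-ORF start sites with at least 30 molecules held the initiator pair, against at most 25.5% at any other shift within 20 nt. Full-ORF molecules cover exactly 1 ORF. Sense molecules overlap the ORF on its strand. A shared end is identical to the base (tolerance 0 nt). Initiator shares over sets of start sites count distinct sites, and those of single named genes count member molecules. Hosting shares count ORFs, and other shares count molecules unless stated. Intervals are 95% Wilson intervals and a count of 0 was given a limit of 3 counts; both cover counting error only, since reads may include PCR copies.

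Named genes were the hosts of the 12 most used start sites (1 site a host), the 5 hosts with the most distinct start sites, the 5 with the most members per full-ORF molecule among those with at least 20 members, and the 5 ORFs with room and the most full-ORF molecules. The members, gene lists and rules were chosen with earlier results of these data known. Alternatives changed the isoform count, start and end limits, tolerance, A-rich limit and level measure. Leaving out KAR4, the use of ends of any stop-crossing molecule, the reach of full-ORF ends, exact copies of the first 30 bases, room for the shortest member, hosting by the most used end and the sorting of start sites by shared ends were chosen after values had been seen, as were RPL33A, FLO1 and the list genes named.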

Additional observations from a re-analysis of the deposited data

How the results depend on the processing

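Of 88 recomputed values over 10 results, 49 moved by less than their counting error or limit and 39 moved further. Only Spearman's rho could change sign, and it did not. The A-rich share, below the 23.5% of full-ORF molecules as reported, was above it with ends over 1000 nt from the next start codon, without KAR4 and without the 10 ORFs with the most members. The cause was not tested unless the setting itself removes or adds molecules. With isoforms of at least 2 molecules, 8.15% of ORFs with room were hosts, with a median level of 27, and 52.7% of molecules shared an end. With starts up to 200 nt, the initiator share was 37.6%, shared ends 58.5%, starts before the main end 93.7%, A-rich ends 19.98% and the median start 89 nt. With ends over 1000 nt from the next start codon, the initiator share was 43.96%, shared ends 51.1% and A-rich ends 23.9%. Without the 10 ORFs with the most members, 3845 molecules remained, with an initiator share of 44.4%, shared ends of 54.0%, starts before the main end of 82.5%, A-rich ends of 28.9%, a median length of 285 nt and a median start of 83 nt. Without KAR4, shared ends were 65.7%, starts before the main end 84.3%, A-rich ends 23.99%, the median length 311 nt and the median start 98 nt. Counting each isoform 1 time gave shared ends of 59.7%, starts before the main end of 84.3%, A-rich ends of 23.2%, a median length of 309 nt and a median start of 100 nt. The initiator share was 56.9% at sites with at least 10 molecules and 53.96% weighted by molecules. Shared ends were 63.1% within 5 nt, 65.3% within 10 nt, 53.6% against full-ORF ends with at least 2 molecules 59.4% against ends of any stop-crossing molecule and 74.7% for starts with a full-ORF end within reach. A-rich ends were 12.6% with at least 7 A and 32.1% with at least 5. Counted as sense molecules, the median host level was 178. With room for the shortest member, 12.6% of ORFs were hosts.

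No paired analysis was possible because both replicates are in 1 pooled column of 1 group, and leaving out a replicate was not possible for the same reason. Most hosts had under 10 molecules, so values of other single hosts were not read. Besides the named genes, the exceptions are FLO1, MAL12, RPL33A and the list genes given, some of which have few molecules. A host with no member was not shown to lack them at this depth.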
